A study of Mus musculus with 9 samples.

Results

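The 8 genes described here are transcription factors of the dorsal midbrain and the tectum, the roof of the midbrain, chosen by name: *Pax3*, *Pax7*, *Otx1*, *Otx2*, *Dmbx1*, *Meis1*, *Meis2* and *Zic1*. They are 8 of the 51912 genes in the table of normalized counts and were found through their Ensembl identifiers. RNA was sequenced from the dissected midbrain of C57Bl/6 mouse embryos at E14.5 (E, embryonic day) in 9 libraries, 3 for each genotype of the homeobox gene *Nkx2.9*. The columns of the table carry a genotype and no replicate number, so libraries are named here by column: 1 to 3 are labelled *Nkx2.9*LacZ/LacZ, 4 to 6 *Nkx2.9*LacZ/+ and 7 to 9 *Nkx2.9*+/+. Both mutant genotypes carry the same allele, a germ line replacement of exon 1 of *Nkx2.9* by LacZ, and *Nkx2.9*+/+ embryos carry no altered allele. Each library pooled 2 midbrains of 1 genotype, so a value is a mean over embryos and over all cells of the dissected tissue.

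In the embryonic midbrain the dorsal side, or alar plate, forms the superior and inferior colliculi of the tectum. Homeobox and paired-box factors give this territory its identity: OTX proteins set the forebrain and midbrain apart from the hindbrain, PAX3 and PAX7 mark the alar plate and direct it towards a tectal fate, and MEIS proteins act as partners of other homeodomain proteins in the same cells. *Zic1* encodes a zinc finger factor of the dorsal neural tube, and *Dmbx1* encodes a paired-type homeodomain protein that is restricted to few regions of the brain, the midbrain among them. *Nkx2.9* belongs to another homeobox family, which is known for patterning ventral neural tissue, and the comparison between genotypes asks whether these dorsal factors differ when 1 or both copies carry LacZ.

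In the GRCm38 annotation all 8 are protein-coding genes on the minus strand. *Pax3* (ENSMUSG00000004872) lies at chr1:78101267-78197134 and *Pax7* (ENSMUSG00000028736) at chr4:139737062-139833528. *Otx1* (ENSMUSG00000005917) lies at chr11:21994764-22002897, *Otx2* (ENSMUSG00000021848) at chr14:48657677-48673819 and *Dmbx1* (ENSMUSG00000028707) at chr4:115915119-115939926. *Meis1* (ENSMUSG00000020160) lies at chr11:18879817-19018985, *Meis2* (ENSMUSG00000027210) at chr2:115863064-116065839 and *Zic1* (ENSMUSG00000032368) at chr9:91358058-91365810. *Pax3* with *Pax7*, *Otx1* with *Otx2* and *Meis1* with *Meis2* are paralogs, copies of an ancestral gene that still share parts of their sequence.

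Because reads of 100 bases were counted per gene, the surroundings of the longest identical run of each pair of paralogs are shown. Other windows of a pair were not searched for fewer differences. In the GENCODE transcripts the longest run of identical bases was 26 for *Pax3* and *Pax7*, 18 for *Otx1* and *Otx2* and 32 for *Meis1* and *Meis2*. The lines below give a window of 100 bases around that run for each gene, 5′ to 3′ on the coding strand, with the identical run in capitals. The windows are wholly coding. The *Pax3* window (chr1:78195431-78196708, joined over the intron) and the *Pax7* window (chr4:139830318-139832870, likewise) cross from exon 1 to exon 2 and differ at 12 of 100 positions.
Pax3: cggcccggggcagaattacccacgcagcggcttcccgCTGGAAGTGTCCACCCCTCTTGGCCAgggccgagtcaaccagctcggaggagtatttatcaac
Pax7: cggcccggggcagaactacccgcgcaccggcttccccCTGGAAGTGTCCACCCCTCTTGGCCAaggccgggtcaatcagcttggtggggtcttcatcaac
The *Otx1* window (chr11:21998377-21998476, exon 4) and the *Otx2* window (chr14:48661306-48661405, exon 3) lie in the homeobox and differ at 16 positions.
Otx1: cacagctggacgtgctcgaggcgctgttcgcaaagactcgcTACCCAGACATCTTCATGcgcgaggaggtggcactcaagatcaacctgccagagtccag
Otx2: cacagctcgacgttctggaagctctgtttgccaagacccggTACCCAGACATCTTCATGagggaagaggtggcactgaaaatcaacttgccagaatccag
The *Meis1* window (chr11:18884027-18884430, joined over an intron) and the *Meis2* window (chr2:115866849-115867312, likewise) hold the run in exon 12 and differ at 14 positions.
Meis1: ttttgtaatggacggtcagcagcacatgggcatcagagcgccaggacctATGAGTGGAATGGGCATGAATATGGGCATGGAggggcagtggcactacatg
Meis2: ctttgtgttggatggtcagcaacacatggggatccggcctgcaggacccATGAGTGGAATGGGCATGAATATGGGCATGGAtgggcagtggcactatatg
No stretch of 100 bases was shared between any of the 8 genes and its paralog. *Pax3*, *Pax7*, *Otx1*, *Dmbx1*, *Meis2* and *Zic1* shared 0 such stretches with any other annotated gene. *Otx2* shared 1.56% of its stretches with overlapping transcripts (*Otx2os1* and Gm49154), and *Meis1* shared 15.4% with Gm37818 and Gm16140, which overlap its locus. Gm37818 lies on the same strand as *Meis1* and shares 1029 exon bases with it (9.77%), so reads there cannot be assigned to 1 gene under any strand setting. Gm16140 lies on the opposite strand and shares 896 exon bases (8.51%), which matters only where strand was not used, and the strand setting is not given in the sources used here. The *Meis1* counts are therefore less certain than those of the other 7 genes.

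Depth and tissue varied between libraries in ways that bear on every value below. Gene-level reads numbered 4522261 to 5942192 in 7 libraries, while column 4 held 2584074 and column 7 held 1692963. The first exon of *Nkx2.9* is replaced in the mutant allele, but the table counts reads over the whole gene, annotated as *Nkx2-9*: it held 4, 6 and 3 reads in columns 1 to 3, 0, 7 and 4 in columns 4 to 6 and 0, 2 and 2 in columns 7 to 9. These few reads do not check the genotypes, and they are not fewer in columns 1 to 3, labelled as homozygous, so each direction below holds only as far as the column labels do. *Xist*, the RNA of the inactive X chromosome, lay between 4607 and 5182 normalized counts in columns 1 to 3, the summed level of 4 Y-linked genes was at most 2.26 there, and both varied between the other 6 libraries, so sex and genotype are partly confounded. The midbrain genes *En1* and *En2* were read in every library, at 157 to 407 and 202 to 407 normalized counts. Samples are separate pools of embryos according to the methods, and p-values measure the spread between these pools.

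All 8 genes had reads in every library, from 7 reads of *Dmbx1* in column 7 to 761 reads of *Meis2*. Levels of different genes were compared as normalized counts per kb of exon, which puts genes of different exon length on 1 scale. On this scale *Otx2* had the highest median over the 9 libraries, 65.1, followed by *Zic1* with 61.3, *Meis2* with 40.6, *Pax7* with 37.7 and *Otx1* with 32.6. *Meis1* with 16.4, *Pax3* with 8.72 and *Dmbx1* with 6.17 were the lowest. Among 16951 genes that had an exon length and averaged at least 5 normalized counts, *Otx2* stood at percentile 81.0 and *Zic1* at 80.3, whereas *Pax3* stood at 30.8 and *Dmbx1* at 23.9. *Meis2*, *Pax7*, *Otx1* and *Meis1* lay between, at percentiles 70.0, 67.2, 63.7 and 44.3.

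**Figure D1:**
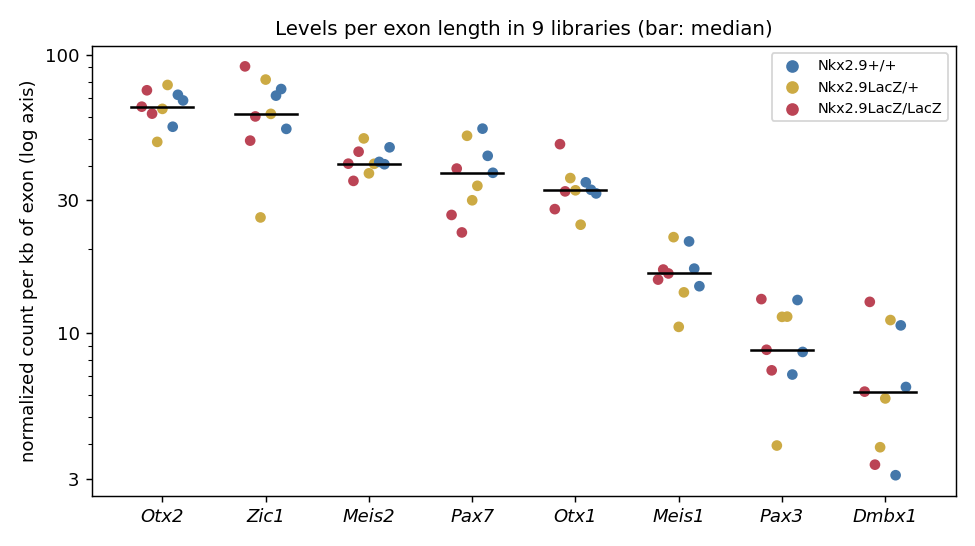
Normalized count per kb of exon (log axis) of each of the 8 genes in the 9 libraries, coloured by genotype, with the median as a bar, in descending order of median. The medians fall from 65.1 for *Otx2* to 6.17 for *Dmbx1*, and the gap between *Otx1* and *Meis1* is the only one between neighbours that no library crosses.

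Only 1 step of this order separated 2 neighbours completely. *Otx1* was above *Meis1* in 9 of 9 libraries, with ranges of 24.5 to 47.7 and 10.5 to 22.1 per kb that did not overlap. *Zic1* was above *Meis2*, *Meis1* above *Pax3* and *Pax3* above *Dmbx1* in 8 of 9 libraries each, with overlapping ranges. *Otx2* against *Zic1*, *Meis2* against *Pax7* and *Pax7* against *Otx1* kept the order of the medians in 5 of 9 libraries each, so these neighbours did not differ beyond their spread. Within the paralog pairs, *Otx2*, *Pax7* and *Meis2* were each above their partner per kb in all 9 libraries, with ratios per kb of 1.35 to 3.18 for *Otx2* over *Otx1*, 2.0 to 13.0 for *Pax7* over *Pax3* and 1.93 to 3.56 for *Meis2* over *Meis1*.

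The spread between libraries of 1 genotype is given for each gene beside the counting error, which does not cover differences between pools of embryos. The coefficient of variation within genotypes was 59.4% for *Dmbx1*, where counting error alone would give 15.1%, and 12.1% for *Meis2*, where it would give 4.68%. *Zic1* stood furthest above its counting error, with 33.9% against 5.43%, a ratio of 6.25. For *Pax3*, *Pax7*, *Otx1*, *Otx2* and *Meis1* the coefficient lay between 16.3% and 37.8%, and between 2.65 and 3.39 times counting error.

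**Figure D2:**
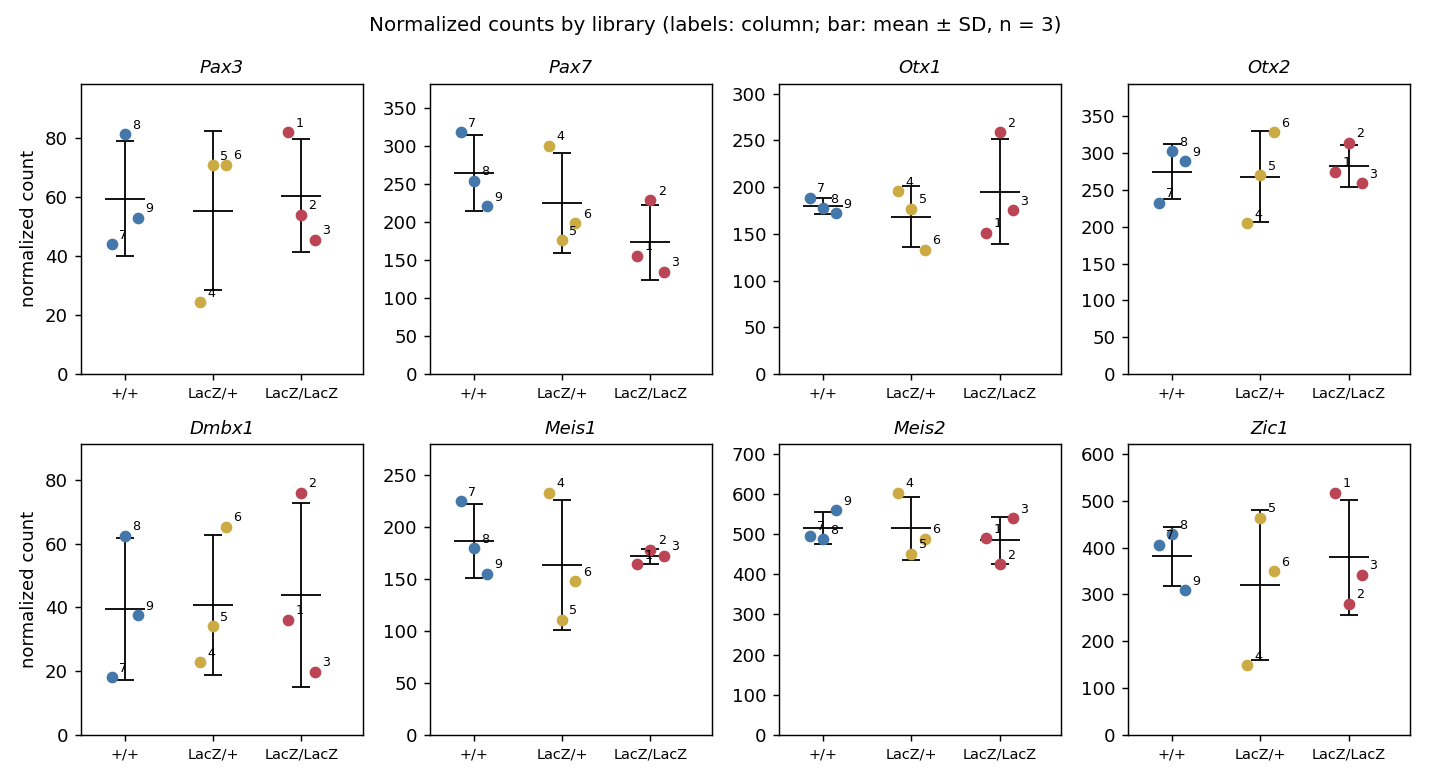
Normalized counts of the 8 genes by genotype, 1 point per library labelled with its column, with mean ± SD as bars (n = 3 libraries, linear axes from 0). The points of the genotypes overlap in every panel, the *Pax7* means are 264, 225 and 173 in +/+, LacZ/+ and LacZ/LacZ, and columns 4 and 7 sit at the top of their genotype for *Pax7* and *Meis1* and at the bottom for *Pax3*, *Otx2* and *Dmbx1*.

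*Pax7*, the paired-box gene that stays on in the developing tectum, was the only 1 of the 8 genes called between genotypes, in *Nkx2.9*LacZ/LacZ against *Nkx2.9*+/+, at an unadjusted p under 0.05 that 2.60% of all genes tested also passed. Its normalized counts were 156, 229 and 135 in columns 1 to 3 (LacZ/LacZ), 300, 176 and 198 in columns 4 to 6 (LacZ/+) and 318, 254 and 221 in columns 7 to 9 (+/+), as labelled. Columns 1 and 3 were the lowest of all 9 and columns 7 and 4 the highest, while column 2 lay above column 9, so the groups overlapped. The mean was 173 ± 49.3 (SD, n = 3) in *Nkx2.9*LacZ/LacZ and 264 ± 49.4 in *Nkx2.9*+/+, a log2 fold change of -0.63 with a standard error of 0.22 and a 95% confidence interval of -1.10 to -0.16 on the scale of log2(normalized count + 1). This corresponds to a ratio of 0.647, with an interval of 0.468 to 0.896. The unadjusted p in limma was 0.0119 and the p adjusted over all 16993 genes tested was 1.00. At the stricter unadjusted threshold of 0.01, which the study also used, 0 of the 8 genes were called in each comparison by limma, beside 0.288%, 0.365% and 0.277% of all genes tested. On the recovered reads *Pax7* had a log2 fold change of -0.60 with an unadjusted p of 0.00821 in DESeq2, the tool of the study, and -0.58 with an unadjusted p of 0.0130 in edgeR, and in limma the unadjusted p was 0.00412 with only the 6 libraries compared, 0.00532 with no minimum count and 0.00980 with a pseudocount of 5, so the side of 0.01 depended on the setting. The direction rests on the column labels, which the few *Nkx2-9* reads (4, 6 and 3 in columns 1 to 3 against 0, 2 and 2 in columns 7 to 9) do not check, and exchanged labels would turn the sign. The exact two-sided permutation test gave p = 0.2, where 0.1 is the smallest that 3 libraries against 3 allow.

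The *Pax7* call was lost without either of a pair of libraries. Without column 3 the log2 fold change of *Nkx2.9*LacZ/LacZ over *Nkx2.9*+/+ was -0.47 with an unadjusted limma p of 0.0733, and without column 7 it was -0.49 with an unadjusted limma p of 0.0586. Without both shallow libraries, columns 4 and 7, it was -0.49 with an unadjusted limma p of 0.00827, and with log2 *Xist* as a covariate it was -0.70 with an unadjusted limma p of 0.0134. *Pax7* was measured at an intermediate mean in *Nkx2.9*LacZ/+, 225 ± 66.1, but neither step passed: the log2 fold change was -0.26 (interval -0.72 to 0.21, unadjusted p = 0.264 in limma) against *Nkx2.9*+/+ and -0.37 for *Nkx2.9*LacZ/LacZ against *Nkx2.9*LacZ/+ (interval -0.84 to 0.10, unadjusted p = 0.112 in limma).

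Markers of neighbouring tissue are given beside this value. Of 12 tested genes of the isthmus and rostral hindbrain, 10 had a lower estimate in *Nkx2.9*LacZ/LacZ than in *Nkx2.9*+/+, beside 47.7% of all genes tested, and 3 were called, beside 2.60% of all genes. Their summed normalized count over 16 genes lay between 1989 and 2584 in *Nkx2.9*LacZ/LacZ and between 2399 and 2713 in *Nkx2.9*+/+, ranges that overlap, with *Atoh1* at 0 in all libraries. *Pax5* made up 35.2% of this sum, and the midbrain genes *En1* and *En2* are on the list as well. All 4 tested choroid plexus genes also had a lower estimate, with 1 called beside the same 2.60%, and overlapping sums over 10 genes of 41.4 to 67.9 and 60.4 to 103. None of these genes passed adjustment. The part of tissue content in the *Pax7* result was not tested. In bulk tissue, fewer cells of a type and less RNA per cell cannot be told apart.

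*Pax3*, which marks the alar plate from early stages, was not called in any comparison. Its normalized counts were 82.0, 54.0 and 45.5 in *Nkx2.9*LacZ/LacZ, 24.4, 70.9 and 71.0 in *Nkx2.9*LacZ/+ and 44.0, 81.4 and 53.0 in *Nkx2.9*+/+. Column 4 was the lowest of all, with 15 reads, and each genotype held both high and low libraries. Against *Nkx2.9*+/+ the log2 fold change was 0.03 for *Nkx2.9*LacZ/LacZ, with an interval from -0.75 to 0.81, and -0.20 for *Nkx2.9*LacZ/+, with an interval from -0.98 to 0.58. As a ratio, the first interval runs from 0.594 to 1.75.

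*Otx2*, which holds the border of the midbrain against the hindbrain, had normalized counts of 275, 315 and 259 in *Nkx2.9*LacZ/LacZ, 205, 270 and 329 in *Nkx2.9*LacZ/+ and 233, 303 and 289 in *Nkx2.9*+/+. Its paralog *Otx1* had 151, 259 and 175, then 196, 177 and 133, and then 189, 178 and 172 in the same order. The 2 shallow columns were the lowest for *Otx2* and among the 3 highest for *Otx1*, and the genotypes overlapped for both genes. Against *Nkx2.9*+/+ the log2 fold change in *Nkx2.9*LacZ/LacZ was 0.04 for *Otx2* (interval -0.32 to 0.41) and 0.08 for *Otx1* (interval -0.33 to 0.50). The OTX pair was thus among the more narrowly bounded of the 8 genes.

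*Dmbx1* varied most between libraries, from 18.1 in column 7 to 75.9 in column 2. It measured 36.1, 75.9 and 19.8 in *Nkx2.9*LacZ/LacZ, 22.8, 34.2 and 65.3 in *Nkx2.9*LacZ/+ and 18.1, 62.5 and 37.5 in *Nkx2.9*+/+. Each genotype held 1 library near the top and 1 near the bottom of this range, and the 3 groups overlapped. The log2 fold change of *Nkx2.9*LacZ/LacZ over *Nkx2.9*+/+ was 0.11 with an interval from -0.93 to 1.16, the widest of the 8. As a ratio this is 0.525 to 2.23, so differences within these bounds are not excluded at this depth and spread.

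Of the TALE homeobox genes, whose proteins bind DNA together with PBX factors, *Meis2* was the steadiest gene. It measured 489, 424 and 540 in *Nkx2.9*LacZ/LacZ, 603, 452 and 489 in *Nkx2.9*LacZ/+ and 497, 487 and 560 in *Nkx2.9*+/+. Its log2 fold changes were -0.09, with an interval of -0.38 to 0.20, in *Nkx2.9*LacZ/LacZ and -0.01, with an interval of -0.30 to 0.28, in *Nkx2.9*LacZ/+ against *Nkx2.9*+/+. These are the narrowest intervals of the 8 genes.

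*Meis1* measured 164, 178 and 173 in *Nkx2.9*LacZ/LacZ, 233, 111 and 148 in *Nkx2.9*LacZ/+ and 225, 180 and 155 in *Nkx2.9*+/+. The libraries labelled *Nkx2.9*LacZ/LacZ lay close together, while the shallow columns 4 and 7 held the 2 highest values and column 5 the lowest. None of its comparisons passed with all 9 libraries, with log2 fold changes of -0.10, -0.24 and 0.13. Without columns 4 and 7, *Meis1* was lower in *Nkx2.9*LacZ/+ than in *Nkx2.9*+/+ by a log2 fold change of -0.38 (unadjusted p = 0.0281 in limma) and higher in *Nkx2.9*LacZ/LacZ than in *Nkx2.9*LacZ/+ by 0.42 (unadjusted p = 0.00959 in limma). Only 2 libraries then stand for each of *Nkx2.9*LacZ/+ and *Nkx2.9*+/+.

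*Zic1* measured 517, 280 and 342 in *Nkx2.9*LacZ/LacZ, 148, 464 and 349 in *Nkx2.9*LacZ/+ and 406, 429 and 308 in *Nkx2.9*+/+. Column 4 held less than any other library and column 1 the most, and the genotypes overlapped. *Zic1* had the most negative estimate in *Nkx2.9*LacZ/+ against *Nkx2.9*+/+, -0.39 with an interval from -1.05 to 0.28, and this sign turned without columns 4 and 7, when it was 0.15. Against *Nkx2.9*+/+ its log2 fold change in *Nkx2.9*LacZ/LacZ was -0.04, with an interval from -0.70 to 0.63.

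Counted over the 8 genes, 1 was called at an unadjusted limma p under 0.05 in *Nkx2.9*LacZ/LacZ against *Nkx2.9*+/+, where 2.60% of the 16993 genes tested were called (441 genes). In *Nkx2.9*LacZ/+ against *Nkx2.9*+/+ it was 0 of 8, beside 2.78% of all genes (473), and in *Nkx2.9*LacZ/LacZ against *Nkx2.9*LacZ/+ it was 0 of 8, beside 2.64% (449). After adjustment limma called 0 genes of all in each comparison, which is 0%, edgeR called 0 in each and DESeq2 called 0, 1 and 0, and none of the 8 genes was called. The unadjusted counts were 421, 372 and 451 in edgeR and 316, 264 and 323 in DESeq2. The median log2 fold change of the 8 genes was -0.01, -0.16 and 0.12 in the 3 comparisons, beside 0.01, -0.01 and 0.02 over all genes tested. The comparisons share libraries, since each genotype enters 2 of them, and in every comparison the groups overlapped for all 8 genes. The 8 log2 fold changes ranged from -0.63 to 0.11, from -0.39 to 0.08 and from -0.37 to 0.35, and the exact permutation p of a gene from 0.2 to 1.0. Apart from *Pax7*, every gene changed the sign of its estimate under at least 1 other setting or left-out library in each comparison, *Meis2* in *Nkx2.9*LacZ/LacZ against *Nkx2.9*+/+ only to a value that rounds to 0.00. The 7 genes other than *Pax7* had an unadjusted limma p of at least 0.237 in all 3 comparisons.

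**Figure D3:**
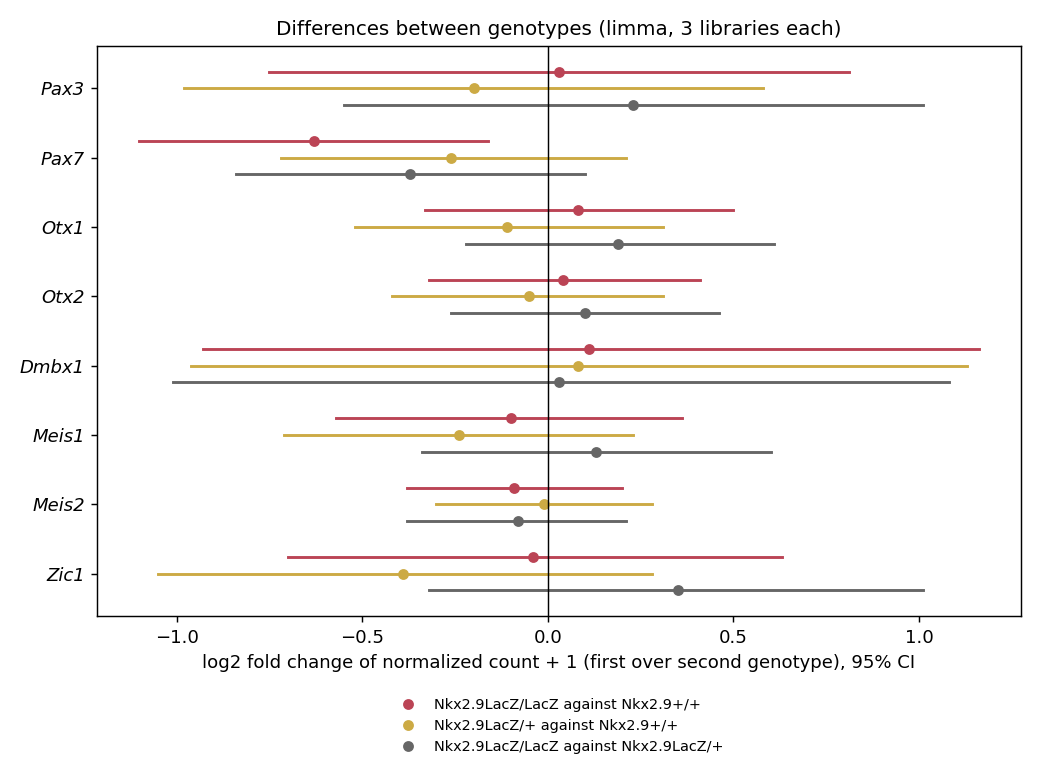
Log2 fold change of normalized count + 1 with its 95% confidence interval (limma, 3 libraries per genotype) for the 8 genes in the 3 comparisons between genotypes, first-named over second-named. Of the 24 intervals only that of *Pax7* in LacZ/LacZ against +/+ (-1.10 to -0.16) leaves out 0, and those of *Dmbx1* are the widest.

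Whether 2 paralogs changed by different amounts was tested on their ratio within each library. The ratio of *Pax7* to *Pax3* normalized counts was 1.90, 4.24 and 2.96 in *Nkx2.9*LacZ/LacZ, 12.3, 2.48 and 2.79 in *Nkx2.9*LacZ/+ and 7.24, 3.12 and 4.17 in *Nkx2.9*+/+. Columns 4 and 7 stood above all other libraries. The mean log2 ratio was 0.66 lower in *Nkx2.9*LacZ/LacZ than in *Nkx2.9*+/+, at 1.51 ± 0.57 and 2.17 ± 0.61 (SD, n = 3), with p = 0.3 in the exact permutation test. The *Otx2* to *Otx1* ratio ranged from 1.05 in column 4 to 2.47 in column 6 and the *Meis2* to *Meis1* ratio from 2.21 in column 7 to 4.07 in column 5. Over 3 ratios in 3 comparisons, the exact p ranged from 0.3 to 1.0 and the groups overlapped in each, where 0.1 is the smallest p possible.

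**Figure D4:**
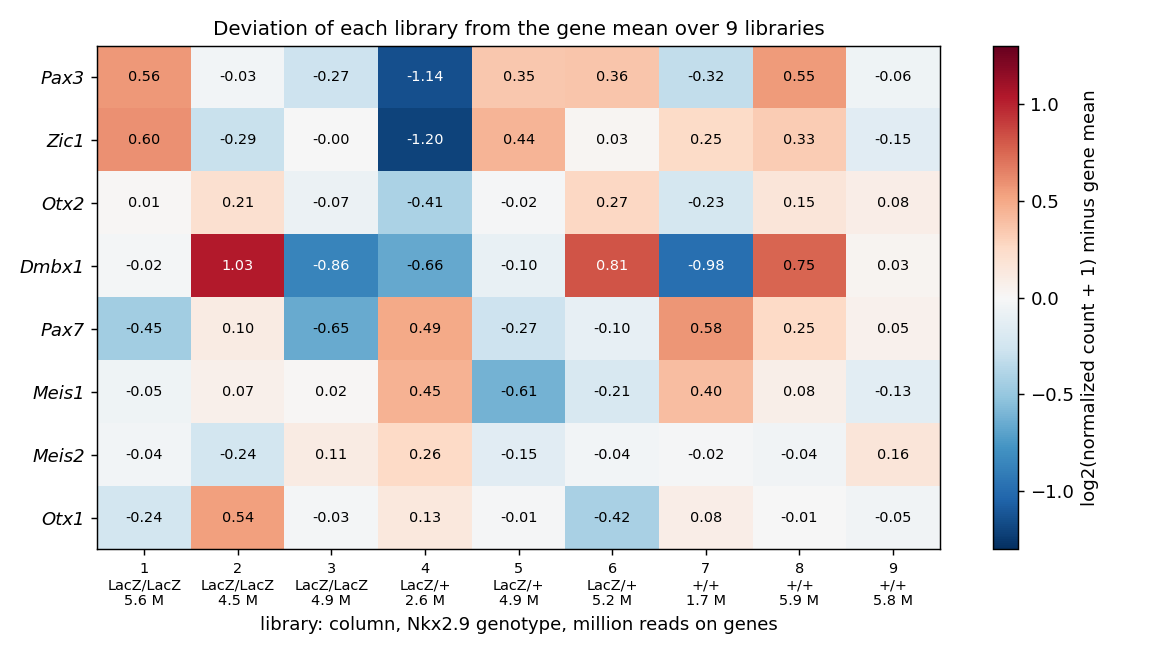
Deviation of each library from the gene's mean over the 9 libraries, as log2(normalized count + 1), for the 8 genes (rows) and the 9 libraries (columns, with genotype and reads on genes). The shallow columns 4 and 7 are both high for *Pax7* and *Meis1* and low for *Pax3*, *Otx2* and *Dmbx1*, while *Zic1* is low only in column 4.

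The shallow libraries shared a pattern over the 8 genes although their genotypes differ. From the highest value, columns 4 and 7 ranked 2 and 1 of 9 for *Pax7*, 1 and 2 for *Meis1* and 2 and 3 for *Otx1*. They ranked 9 and 8 for *Pax3* and *Otx2* and 7 and 9 for *Dmbx1*. *Zic1*, with ranks 9 and 4, and *Meis2*, with ranks 1 and 4, did not follow this. Across the 9 libraries the log2 of total reads had a Pearson r of 0.75 with *Otx2* (permutation p = 0.0243, Spearman rho 0.57 with permutation p = 0.121). It was 0.68 with *Pax3* (permutation p = 0.0496, rho 0.70 with permutation p = 0.0433), -0.67 with *Pax7* (permutation p = 0.0485, rho -0.40 with permutation p = 0.291) and -0.68 with *Meis1* (permutation p = 0.0536, rho -0.42 with permutation p = 0.27). Without these 2 libraries r was 0.02 for *Otx2*, 0.49 for *Pax3*, 0.27 for *Pax7* and 0.16 for *Meis1*, so for *Otx2*, *Pax7* and *Meis1* the relation rested on them. With log2 total reads as a covariate the *Pax7* difference between *Nkx2.9*LacZ/LacZ and *Nkx2.9*+/+ was -0.50 (unadjusted p = 0.0124 in limma).

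Some of the 8 genes also rose and fell together from library to library. *Otx2* and *Dmbx1* had the closest relation of the 28 pairs, with r = 0.86 (permutation p = 0.00216) and rho = 0.93 (permutation p = 0.000750). Without columns 4 and 6, the farthest from the median of *Otx2*, r was 0.95, and within genotypes, after each genotype's mean was subtracted, it was 0.88. *Pax3* and *Zic1* followed with r = 0.86 (permutation p = 0.00663) and rho = 0.70 (permutation p = 0.0433), but r was 0.44 without columns 1 and 4 and thus rested on them. *Pax3* and *Otx2* had r = 0.78 (permutation p = 0.0130) and rho = 0.68 (permutation p = 0.0503), and r = 0.63 without columns 1 and 4. *Pax7* ran with *Meis1* (r = 0.64, permutation p = 0.0606, rho = 0.72, permutation p = 0.0369), with r = 0.74 without columns 3 and 7 and 0.80 within genotypes. *Pax3* ran against *Meis1* (r = -0.67, permutation p = 0.0549, rho = -0.52, permutation p = 0.162), with r = -0.54 without columns 1 and 4. In all, 92 relations were computed among the genes, with tissue lists and with depth. Of these, 12 had a Pearson p under 0.05 and 0 passed Benjamini-Hochberg adjustment, with the smallest adjusted permutation p at 0.0762 for Pearson and 0.0690 for Spearman.

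**Figure D5:**
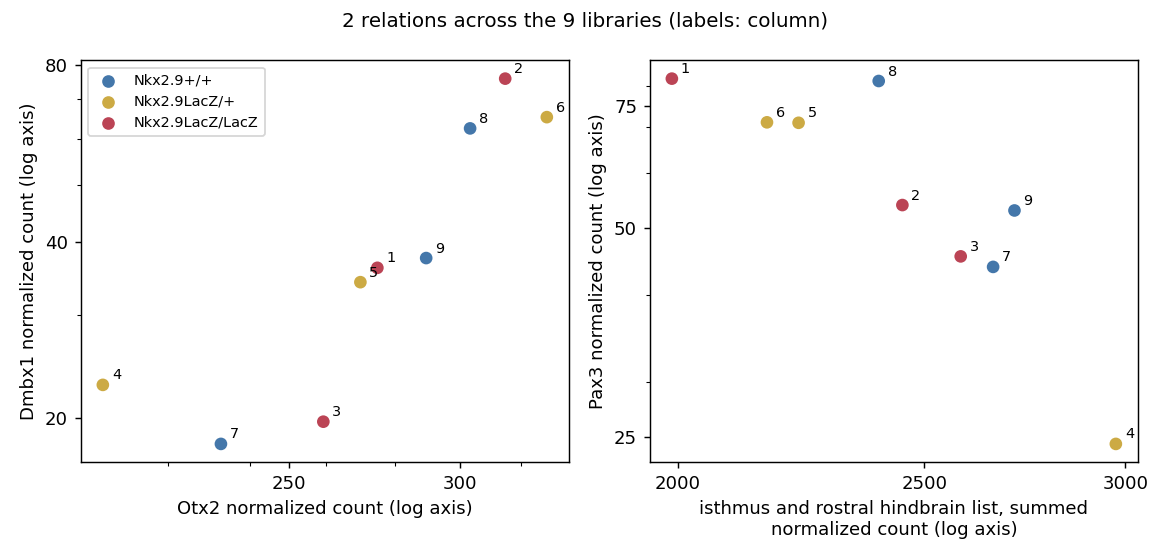
Left, normalized counts of *Otx2* and *Dmbx1*. Right, *Pax3* against the summed normalized count of the isthmus and rostral hindbrain list. Each point is 1 of 9 libraries, labelled with its column and coloured by genotype (log axes): *Dmbx1* rises with *Otx2* (r = 0.86) and *Pax3* falls with the list (r = -0.87), and the genotypes are mixed along both.

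Marker lists, of which that of the isthmus and rostral hindbrain also holds midbrain genes, varied with the same genes. The summed level of the isthmus and rostral hindbrain list, whose genes are expressed at the caudal end of the midbrain and behind it, ran against *Pax3* with r = -0.87 (permutation p = 0.00199) and rho = -0.90 (permutation p = 0.00203). The relation was -0.77 without columns 1 and 4 and -0.96 within genotypes. The list sum was 1989 in column 1, where *Pax3* was highest, and 2974 in column 4, where it was lowest. *Pax5* made up 35.2% of this sum. *Lhx9*, which is also on the list of other dorsal midbrain genes below, averaged 798 normalized counts. *En1* and *En2*, used above as midbrain genes, are on the list too, so its sum does not stand for neighbouring tissue alone. *Zic1* ran against the same list with r = -0.76 (permutation p = 0.0147) and rho = -0.75 (permutation p = 0.0255), and with r = -0.34 without columns 1 and 4. The neuron list ran with *Pax3* (r = 0.88, permutation p = 0.00434) and *Otx2* (r = 0.87, permutation p = 0.00249) and against *Meis1* (r = -0.80, permutation p = 0.0130). Its Spearman rho was 0.55, 0.65 and -0.68 (permutation p = 0.133, 0.0666 and 0.0503), and r without columns 4 and 6 was 0.64, 0.59 and -0.81. These relations are among the 92 above, and none passed adjustment. The part of tissue content and depth in them was not tested.

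For each gene the 3 genes with the most similar pattern over the 9 libraries were listed, among about 7500 genes that averaged at least 100 normalized counts, by Pearson r of log2(normalized count + 1). They were *Lig4* (r = 0.989), *Frmd3* and *Arl8b* for *Pax3*, *Wdr81* (0.936), *Vps53* and *Stk11ip* for *Pax7*, and *Adnp2* (0.929), *Trim26* and *Unc79* for *Otx1*. For *Otx2* they were *Kantr* (0.974), *Papolg* and *Pde3b*, and for *Dmbx1* they were *Ift52* (0.941), *Angel2* and *Rab22a*. For *Meis1* they were *Rp9* (0.962), *Dennd4b* and *Cog2*, for *Meis2* *Map1lc3a* (0.965), *Dus3l* and *Tle2*, and for *Zic1* *Ranbp6* (0.970), *Spryd7* and *Ccdc25*. None of the 24 genes was one of the 8, of which *Pax3* and *Dmbx1*, with means of 58.46 and 41.35, fell below the minimum and could not be listed. The libraries share depth and tissue, so such values describe the 9 libraries and no more.

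Of 32 other genes of the dorsal midbrain and alar plate, 25 averaged at least 5 normalized counts and were tested. No gene of this list was called in any of the 3 comparisons at an unadjusted limma p under 0.05 (0 of 25 each), beside the 2.60%, 2.78% and 2.64% of all genes. The median log2 fold change of the 25 genes was 0.01, -0.04 and 0.07. *Tcf7l2*, a mediator of Wnt signalling, was the most abundant and made up 31.5% of the summed level, with means of 3400 ± 337 in *Nkx2.9*LacZ/LacZ, 3201 ± 882 in *Nkx2.9*LacZ/+ and 3192 ± 138 in *Nkx2.9*+/+ (SD, n = 3). In *Nkx2.9*LacZ/LacZ against *Nkx2.9*+/+, 14 of the 25 log2 fold changes were at or above 0 and 11 below it, from -0.46 for *Tfap2a* (standard error 0.33) to 1.36 for *Helt* (standard error 0.81). *Wnt3a*, a roof plate ligand of earlier stages, had 0 reads in all libraries.

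Of 15 relatives of the 8 genes among the other PAX, CRX, ZIC and TALE genes, 13 were tested and 0 were called in each comparison, beside 2.60%, 2.78% and 2.64% of all genes. The 4 ZIC genes among them also belong to the dorsal list above, so the counts of both lists are partly of shared genes. *Zic4*, which lies head to head with *Zic1* and shares 60 exon bases with it on the opposite strand, varied from 32.6 to 143 normalized counts and was lowest in column 4, as *Zic1* was. Its log2 fold change in *Nkx2.9*LacZ/LacZ against *Nkx2.9*+/+ was 0.35 with a standard error of 0.42, while *Zic2* and *Zic5* had 0.04 and 0.63, with standard errors of 0.31 and 0.43. *Pax8*, a marker of the isthmus, had the smallest p of the 15, with a log2 fold change of -0.80 and a standard error of 0.40 (unadjusted p = 0.0644 in limma), and *Pax5* and *Pax6* had 0.02 and 0.15. *Meis3*, the third MEIS gene, had -0.19 with a standard error of 0.13.

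In the lists of other tissue, a few genes were called at an unadjusted limma p under 0.05, all of them lower in the libraries labelled with the first-named genotype, a direction that rests on the same labels as that of *Pax7*, and their counts stand beside 2.60%, 2.78% and 2.64% of all genes in the 3 comparisons. In *Nkx2.9*LacZ/LacZ against *Nkx2.9*+/+, 3 of 12 isthmus and rostral hindbrain genes were lower: *Tph2*, the enzyme of serotonin synthesis (-1.75), *En1* (-0.60) and *Slc6a4*, the serotonin transporter (-1.07). *Tph2* had low means of 7.71 ± 3.76 against 27.2 ± 9.12 normalized counts (SD, n = 3), where 1 read in column 7 stands for 2.59. *En1* had 180 ± 19.6 against 274 ± 48.6, and *Slc6a4* had 19.3 ± 9.41 against 38.9 ± 12.2. *Pitx3*, a dopamine neuron factor, was also lower as 1 of 15 ventral midbrain genes (-0.71), as were *Kl* of 4 choroid plexus genes (-1.25) and *Foxc1* of 5 meningeal genes (-0.99). *Tph2* (-1.01) and *Foxc1* (-0.78) were also lower in *Nkx2.9*LacZ/LacZ than in *Nkx2.9*LacZ/+, and *Col1a1* (-0.77) was lower in *Nkx2.9*LacZ/+ than in *Nkx2.9*+/+. The adjusted p in limma was at least 0.999 for each. The exact permutation test gave p = 0.1 for each, the smallest that 3 libraries against 3 allow. The forebrain (11 tested), vessel (8), blood (7), neural progenitor (10) and neuron (10) lists held 0 calls in each comparison.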

How the data were processed

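Per the methods, ribosomal RNA was removed from the RNA of dissected E14.5 midbrains, paired ends of 100 bp were sequenced, Hisat2 placed the reads on GRCm38/mm10, and the authors counted reads per gene with featureCounts. The labels name a different RNA isolation and an mRNA protocol, and the series title says cortical where the other labels say midbrain. Tool versions, annotation release and strand setting are not given in the sources used here. The signal deposited by the authors is a normalized count, the reads of a gene divided by a DESeq2 size factor per library. Whole reads were recovered for 100% of 210686 values above 0 (tolerance 0.001). The 3 deposited tables of DESeq2 comparisons were not used.

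The genotype in a column's name gave its group. Genotypes were compared with limma 3.58.1 (R 4.3.3; lmFit, then eBayes with a trend) on log2(normalized count + 1), two-sided, 9 libraries in 1 fit and no covariate, over 16993 genes that averaged at least 5 normalized counts, adjusted by Benjamini-Hochberg. A call is an unadjusted p under 0.05, the wider of 2 unadjusted thresholds that the study used; the other is 0.01. Single values were also tested by exact permutation of 3 libraries against 3. Correlations used 9 libraries and permutation p. Alternatives included edgeR 4.0.16 and DESeq2 1.42.0 on the recovered reads, and 4 were chosen after seeing the data: an unadjusted p under 0.01, leaving out columns 4 and 7 together, log2 total reads as a covariate and the relation of each gene to total reads. The steps were tested on simulated data. Positions, exon lengths and transcripts came from GENCODE for GRCm38 (51633 of 51912 identifiers matched). Confidence intervals of log2 fold changes come from the limma fit and measure the spread between libraries. The counting error beside the coefficients of variation does not cover differences between pools.

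The text names the 8 genes, the 3 genes most like each, list genes with an unadjusted p under 0.05, *Nkx2-9*, *Xist* and Y-linked genes, and 2 midbrain genes that check the tissue. Results for a few list genes are not reported here. Other list genes named were picked once their values were known. The 8 genes, the lists and the tests were chosen with earlier results of these data known.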

Additional observations from a re-analysis of the deposited data

How the results depend on the processing

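The 8 genes had 528 log2 fold changes under other settings (24 gene comparisons, 22 settings each). Of these, 453 kept their direction and their side of an unadjusted p of 0.05. A call was lost in 2 and gained in 9, and 64 changed sign. *Pax7* alone had no change of sign in any of the 3 comparisons. Some settings leave the log2 fold change unchanged by design, so a kept direction there is no test of it. They are no minimum count, a minimum of 20, eBayes without trend, only the 6 libraries compared, and omitting a library of the third genotype. In *Nkx2.9*LacZ/LacZ against *Nkx2.9*+/+, *Pax7* was -0.63 in each of them. The cause of the changes below was not tested. No paired analysis was possible because the columns carry no replicate number.

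In *Nkx2.9*LacZ/LacZ against *Nkx2.9*+/+, *Pax3* turned to -0.02 with edgeR, -0.01 with DESeq2, -0.05 with *Xist* as a covariate, -0.20 with total reads as a covariate and -0.16 without columns 4 and 7. In the last 2 settings *Otx2* turned to -0.05 and -0.07, *Dmbx1* to -0.17 and -0.34 (-0.03 with *Xist*) and *Meis1* to 0.03 and 0.04, and *Zic1* was 0.01 with edgeR and without both columns. In *Nkx2.9*LacZ/+ against *Nkx2.9*+/+ without columns 4 and 7, *Pax3* was 0.11, *Otx2* 0.01, *Dmbx1* -0.04 (-0.03 with edgeR) and *Zic1* 0.15. In *Nkx2.9*LacZ/LacZ against *Nkx2.9*LacZ/+ without them, *Pax3* was -0.27, *Otx2* -0.08, *Dmbx1* -0.31 (-0.24 with *Xist*, -0.21 with total reads), *Meis2* 0.04 and *Zic1* -0.13, and *Meis1* was -0.08 with *Xist*.

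With each library left out in turn, the log2 fold changes of *Nkx2.9*LacZ/LacZ over *Nkx2.9*+/+ ranged from -0.85 to -0.47 for *Pax7*, -0.21 to 0.28 for *Pax3*, -0.14 to 0.25 for *Otx1*, -0.07 to 0.12 for *Otx2*, -0.38 to 0.57 for *Dmbx1*, -0.23 to 0.04 for *Meis1*, -0.17 to 0.00 for *Meis2* and -0.29 to 0.16 for *Zic1*. Those of *Nkx2.9*LacZ/+ over *Nkx2.9*+/+ ranged from -0.48 to -0.10 for *Pax7*, -0.45 to 0.30 for *Pax3*, -0.23 to 0.05 for *Otx1*, -0.21 to 0.12 for *Otx2*, -0.37 to 0.49 for *Dmbx1*, -0.52 to 0.01 for *Meis1*, -0.13 to 0.08 for *Meis2* and -0.73 to 0.09 for *Zic1*. Those of *Nkx2.9*LacZ/LacZ over *Nkx2.9*LacZ/+ ranged from -0.59 to -0.15 for *Pax7*, -0.27 to 0.48 for *Pax3*, -0.03 to 0.36 for *Otx1*, -0.08 to 0.26 for *Otx2*, -0.46 to 0.49 for *Dmbx1*, -0.11 to 0.42 for *Meis1*, -0.17 to 0.04 for *Meis2* and -0.13 to 0.69 for *Zic1*. The log2 ratio of *Pax7* to *Pax3* ranged from -0.78 to 0.35 and from -1.01 to 0.12 in the last 2 comparisons and kept its sign in the first (-0.93 to -0.33). That of *Otx2* to *Otx1* ranged from -0.19 to 0.11, -0.27 to 0.35 and -0.39 to 0.23, and that of *Meis2* to *Meis1* from -0.15 to 0.20 in the first.

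The number of the 8 genes called ranged from 0 to 1, from 0 to 2 and from 0 to 2 with a library left out. The call of *Pax7* in the first comparison was lost without column 3 or 7, and at an unadjusted limma p under 0.01 the count was 0 in each comparison. In *Nkx2.9*LacZ/+ against *Nkx2.9*+/+, *Meis1* (-0.52) and *Pax7* (-0.48) were called without column 4, and *Zic1* (-0.73) without column 5. In *Nkx2.9*LacZ/LacZ against *Nkx2.9*LacZ/+, *Pax7* was called without column 2 (-0.59) or 5 (-0.53), *Zic1* (0.69) without column 5 and *Meis1* (0.42) without column 4. Without columns 4 and 7 together the count was 1 in each of the last 2 comparisons (*Meis1*).

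Over all genes, the 441, 473 and 449 calls became 1135, 1137 and 1132 with no minimum count, 263, 242 and 288 with a minimum of 20, 703, 852 and 971 without columns 4 and 7, and 283 to 827, 375 to 933 and 293 to 740 with a library left out. In *Nkx2.9*LacZ/+ against *Nkx2.9*+/+ they became 280 with 6 libraries in the fit, 264 with DESeq2, 298 with *Xist* and 790 with total reads as a covariate. Without columns 4 and 7, 6 genes passed adjustment in *Nkx2.9*LacZ/LacZ against *Nkx2.9*+/+. Depth limits *Dmbx1* and *Pax3* most, with 7 and 15 reads in their lowest library.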
